A study of Mus musculus with 3 samples.

Results

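The genes described here are the autophagy and lysosome genes of the mouse array: every probe set with a single gene symbol beginning with Atg, Cts (the cathepsins), Lamp, Atp6v (the vacuolar proton pump) or Mcoln, plus Tfeb and Tfe3. The rule found 75 probe sets for 72 genes, out of 41345 probe sets and 22180 named genes. They were 18 Atg genes, 23 cathepsin genes, 22 Atp6v genes and 9 Lamp, Mcoln and Tfe genes. Atp6v1g1 and Atp6v1b2 were the 2 genes with more than 1 probe set, and the one with the highest mean stands for each. Atp6v0c, a ring subunit of the pump, was not analysed here, since no single-symbol probe set carried its name.

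The series has 3 expression arrays of 1 group. All were hybridised with total RNA of neurospheres, floating colonies of neural precursor cells, of the V-SVZ, the ventricular-subventricular zone along the lateral ventricles. The donors were wild-type (WT) CD1 pups of postnatal day 8. Cells were plated at 10 per microlitre and grown for 7 days in medium that held EGF at 20 ng/ml and FGF at 10 ng/ml. The labels give no treatment, second genotype or second age, and they do not say whether an array holds 1 pup. The 3 arrays may thus differ for technical reasons alone. The p-values measure no more than a spread between these arrays that is pooled over genes. Neurospheres are mixed, growth-factor-driven colonies and not V-SVZ tissue.

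Autophagy encloses cytoplasm in a double membrane, the autophagosome, and delivers it to the lysosome. The Atg proteins build that membrane, the vacuolar proton pump acidifies the lysosome, and the cathepsins digest what arrives there. The related factors Tfeb and Tfe3 enter the nucleus when lysosomes are stressed or nutrients are short, and bind an extended E-box called the CLEAR element in the promoters of lysosomal genes. In the V-SVZ, lysosomes are known for holding protein aggregates in quiescent neural stem cells.

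The promoters that hold the core of this element are shown first, because they join all classes of the gene set. Promoter windows of 250 bases before to 50 after the start site were matched by symbol for 60 of the 72 genes (RefSeq, build GRCm38.p6), 68 windows in all. The 8-base palindrome TCACGTGA, which reads the same on both strands and contains the 6-base E-box CACGTG, was found in the windows of Atg3, Atp6v0d1, Atp6v0e, Atp6v1a, Ctsa, Ctsd and Mcoln1. Each stretch below runs 5′ to 3′ on the strand of the gene, with the palindrome in capitals. The last 4 stretches, nearest to the start site, are kept to at most 30 bases.
Atg3: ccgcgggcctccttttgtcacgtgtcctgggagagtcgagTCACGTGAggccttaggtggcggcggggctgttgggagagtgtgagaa
Atp6v1a: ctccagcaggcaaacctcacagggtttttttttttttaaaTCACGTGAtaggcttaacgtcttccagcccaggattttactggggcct
Ctsd: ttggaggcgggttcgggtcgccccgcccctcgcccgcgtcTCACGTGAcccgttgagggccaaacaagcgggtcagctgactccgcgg
Mcoln1: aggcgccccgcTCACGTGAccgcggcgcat
Ctsa: tgTCACGTGAtgcagatgcTCACGTGAcc
Atp6v0d1: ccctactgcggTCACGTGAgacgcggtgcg
Atp6v0e: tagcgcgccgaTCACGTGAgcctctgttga

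The stretches lie at chr16:45158717-45158804 on the plus strand (Atg3), chr16:44139344-44139431 on the minus strand (Atp6v1a), chr7:142387879-142387966 on the minus strand (Ctsd), chr8:3500462-3500491 on the plus strand (Mcoln1), chr2:164833758-164833786 on the plus strand (Ctsa), chr8:105566050-105566079 on the minus strand (Atp6v0d1) and chr17:26676387-26676416 on the plus strand (Atp6v0e). Ctsa was the one gene of these with 2 copies in its window.

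The palindrome was in 7 of 68 windows of the gene set (10.3%) and in 320 of 32851 windows of the whole table (0.974%). By class, the palindrome was in 1 of 18 windows of Atg genes and 2 of 20 of cathepsins. It was in 3 of 17 of Atp6v genes and 1 of 13 of Lamp, Mcoln and Tfe genes. It was in 1.71% of the 13082 windows of genes whose signal was above the reference level defined below, and in 0.491% of windows of genes not above. Within the gene set, all 7 windows belonged to genes above that level (7 of 43), and 0 of 25 to genes not above. The 6-base E-box was in 16 of the 68 windows (23.5%), against 7.15% of all windows and 9.74% of windows of genes above the level. It was in 14 of the 43 windows of genes above and in 2 of the 25 windows of genes not above, those of Ctsll3 and Mcoln2. CpG content moved with the call: the median window held 17 CpG dinucleotides for the set's genes above the level and 2 for those not above, while for all genes it was 20 and 4. Its part in the E-box counts was not tested. A match in a window is a description of its letters, not of binding.

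**Figure D1:**
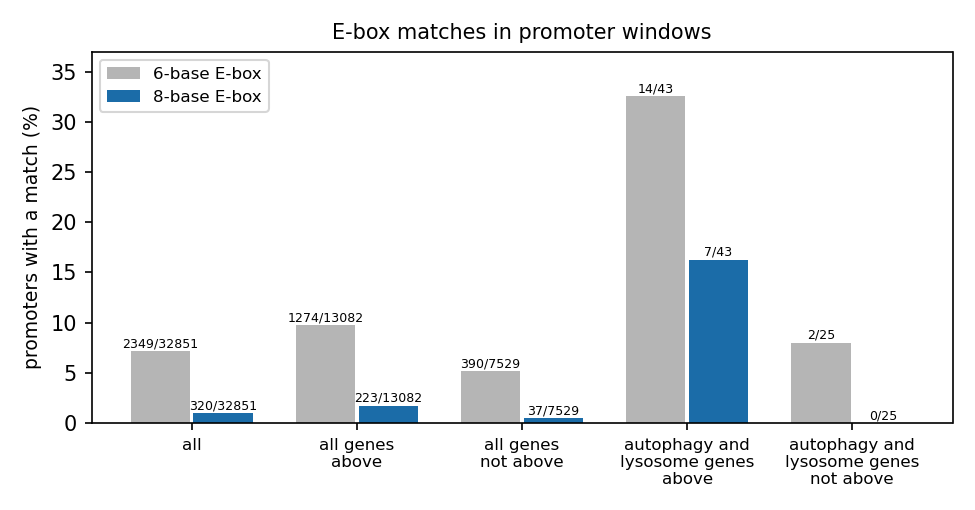
Share of promoter windows (%, y axis) that hold the 6-base E-box (grey) or its 8-base extension (blue), for all windows, for windows of all genes above or not above the reference level, and for the autophagy and lysosome genes above or not above it. Numbers over the bars are windows with a match of all windows; the 8-base form was in 7 of 43 windows of autophagy and lysosome genes above the level and in 223 of 13082 windows of all genes above it.

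Since all arrays belong to 1 group, signals were compared with a reference level that stands for unspecific binding. On each array this was the 95th percentile of the 1400 olfactory and vomeronasal receptor probe sets. These reference levels were 5.63, 5.53 and 5.71 on arrays 1, 2 and 3, on the log2 scale. A gene was called above when limma's one-sided test of log2 signal minus reference level passed an adjusted p of 0.05 (Benjamini-Hochberg, 22180 genes). Over all genes 59.1% were called above, and 47 of the 72 autophagy and lysosome genes were (65.3%). The median gene of the set lay 2.49 ± 0.12 (SD over the 3 arrays) above the reference level, and the median of all genes 0.76 ± 0.079 above. All genes include the receptors that define the level. Without these and the set, 62.8% of 20718 genes were above, with a median margin of 1.05 ± 0.11. The share of the set was close to this and was not tested against it. The classes differed in these counts: 17 of 18 Atg genes, 16 of 22 Atp6v genes, 9 of 23 cathepsin genes and 5 of 9 Lamp, Mcoln and Tfe genes were above. Their median margins were 2.65 ± 0.091 for Atg genes, 4.41 ± 0.10 for Atp6v genes, -0.67 ± 0.13 for cathepsins and 0.25 ± 0.070 for the last class. These margins describe probe sets of different binding strength and do not rank transcripts by abundance.

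**Figure D2:**
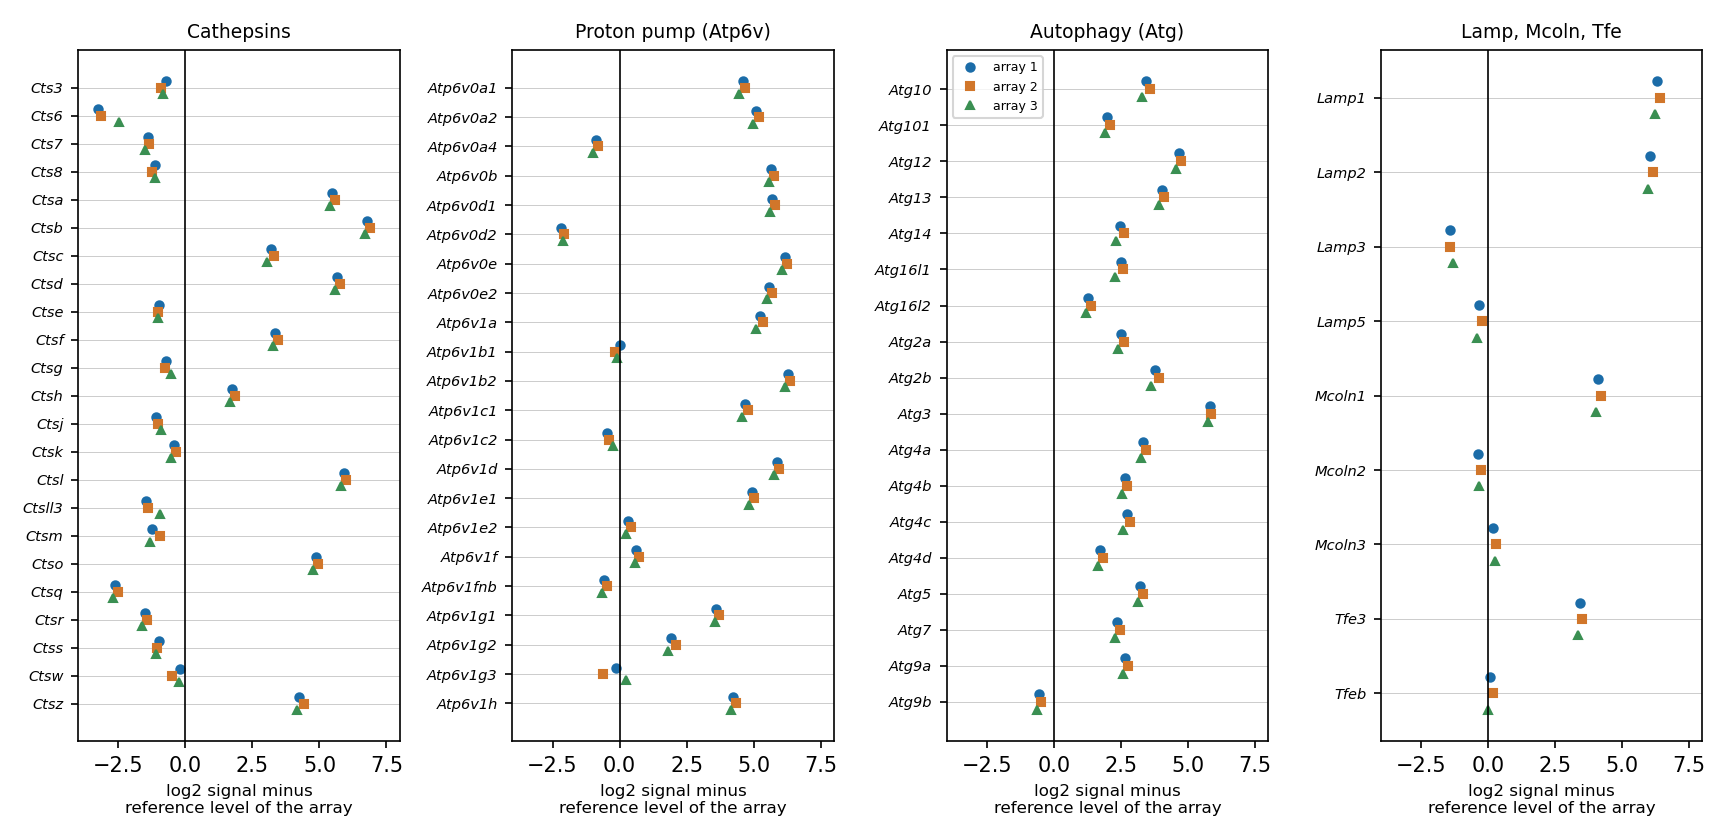
Log2 signal minus the reference level of the same array (x axis, log2 units) for each of the 72 genes, with 1 point per array and 0 at the reference level (black line). The 9 cathepsins called above stand apart from the 14 not above, Atp6v1e2 and Atp6v1f lie just right of the line, and Atg9b is the one Atg gene left of the line.

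The machinery that forms autophagosomes was almost completely above the reference level. Atg13 and Atg101, partners of the ULK1 kinase that starts the process, had 9.65 and 7.62 on every array. Atg14, which directs the lipid kinase complex to the forming membrane, had 8.10, 8.14 and 8.05. The lipid transfer genes Atg2a (8.12, 8.13 and 8.12) and Atg2b (9.40, 9.45 and 9.33) were above as well. Atg9a, a lipid scramblase carried on vesicles that seed the membrane, had 8.28 on every array, whereas its paralog Atg9b had 5.07 on every array and was not above. The margin to the reference level was 2.66 ± 0.091 for Atg9a and -0.55 ± 0.091 for Atg9b, and each gene was on its side of the level on all 3 arrays.

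Both ubiquitin-like conjugation chains were above at every step. Atg7, the activating enzyme of both chains, had 7.996 on every array. The conjugating enzyme genes were Atg10 (9.06, 9.12 and 8.99) and Atg3 (11.46, 11.39 and 11.45). Atg12 (10.28) and Atg5 (8.84), whose products are joined to each other, were equal on all arrays. Atg16l1, which brings that conjugate to the membrane, had 8.12, 8.13 and 7.98, and its paralog Atg16l2 had 6.90 on every array. All 4 genes of the Atg4 proteases, which trim and release LC3-type proteins, were above: Atg4a with 8.97, Atg4b with 8.27 and Atg4d with 7.37 on every array, and Atg4c with 8.36, 8.36 and 8.29. The 17 Atg genes called above had means from 6.90 to 11.43. The lowest of them, Atg16l2, was the only Atg gene whose call ended under another setting (other reference genes, limma adjusted p = 0.0962, the highest of 12 alternatives, of which the lowest was 1.68e-99).

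The vacuolar proton pump was covered by at least 1 isoform above the level for each measured subunit. The pump has a cytosolic V1 part that splits ATP and a membrane V0 part that carries protons. Of 8 V0 genes 6 were above, and of 13 V1 genes 10, beside 59.1% of all genes. In V0 these were the large subunit genes Atp6v0a1 (10.22, 10.22 and 10.18) and Atp6v0a2 (10.72, 10.72 and 10.70), Atp6v0b (11.29 on every array), Atp6v0d1 (11.32), Atp6v0e (11.79) and Atp6v0e2 (11.20). In V1, the catalytic gene Atp6v1a had 10.87, 10.87 and 10.82 and the nucleotide-binding gene Atp6v1b2 had 11.89 on every array. The stalk and regulatory genes Atp6v1c1 (10.30, 10.32 and 10.29), Atp6v1d (11.51, 11.49 and 11.49), Atp6v1e1 (10.55 on every array), Atp6v1g1 (9.24, 9.24 and 9.26) and Atp6v1h (9.87 on every array) were above. On the kept probe sets, none of these genes overlapped the reference level on any array. For Atp6v1g1, a probe set left aside read 5.65 on array 3, under the level of 5.71.

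Of 7 isoforms known from restricted tissues 2 were above the level, and of the other 15 Atp6v genes 14 were; the difference was not tested. At the 90th percentile of the receptors 4 of the 7 were above, beside 66.7% of all genes. At the 99th and with other reference genes 1 was, beside 44.9% and 43.4% of all genes. Atp6v0a4 and Atp6v1b1, known from acid-secreting cells of kidney and inner ear, were not above, with 4.73 on every array for the first and 5.63, 5.34 and 5.63 for the second. Atp6v0d2, known from osteoclasts, had 3.45, 3.45 and 3.59. Atp6v1c2 had 5.15, 5.15 and 5.49. Atp6v1g3, a kidney isoform, had 5.49, 4.91 and 5.96, the widest spread of the 72 genes, and exceeded the reference level on array 3 alone. The called genes of this kind were the brain isoform Atp6v1g2 (7.56, 7.62 and 7.53) and the testis isoform Atp6v1e2 (5.95 on every array, margin 0.33 ± 0.091). Over all genes 59.1% were called. Among the other 15 Atp6v genes the one not above was Atp6v1fnb (5.06 on every array), a neighbour of Atp6v1f whose symbol the rule also matches.

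Atp6v1f, the only gene for the V1 subunit F in the set, lay close to the reference level, with 6.25, 6.27 and 6.27 on the 3 arrays and a margin of 0.64 ± 0.092. Its call and that of Atp6v1e2 ended when the reference was the 99th percentile of the receptors (6.42, 6.09 and 6.69), where 44.9% of all genes and 44 of the 72 were above. The 14 other pump genes called above kept their calls there.

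The cathepsins split into genes above the level by a wide margin and genes under it. The 9 above had mean signals from 7.37 to 12.41, and the 14 not above had means from 2.67 to 5.31. Of the 23 cathepsin genes 39.1% were above, beside 59.1% of all genes. The cysteine proteases of most lysosomes were above: Ctsb (12.41 on every array), Ctsl (11.53 on every array), Ctso (10.49 on every array), Ctsz (9.88, 9.94 and 9.88), Ctsf (8.97 on every array), Ctsh (7.37 on every array) and Ctsc (8.83, 8.85 and 8.75), the last known for activating serine proteases of immune cells. The aspartic protease gene Ctsd had 11.29 on every array, and Ctsa, a serine carboxypeptidase that also stabilises other lysosomal enzymes, had 11.10, 11.12 and 11.10. All 9 were above on each array, and the array values of any one of them differed by at most 0.097.

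The 9 rodent placental cathepsins, relatives of Ctsl known from the placenta, were all under the level, where 59.1% of all genes were above. They lie together on mouse chromosome 13 in RefSeq's gene order, in a span of 14 protein-coding genes that holds 5 others. Cts3 (4.90, 4.61 and 4.90), Cts6 (2.39, 2.39 and 3.24), Cts7 (4.22, 4.17 and 4.22) and Cts8 (4.49, 4.28 and 4.57) were not above on any array. Ctsj (4.52, 4.52 and 4.81), Ctsm (4.40, 4.57 and 4.40), Ctsq (3.01 on every array), Ctsr (4.11 on every array) and Ctsll3 (4.15, 4.15 and 4.78) were not above either. The 5 other genes of the span were measured too, and none was called above. The highest placental value, 4.90, stood under the lowest of the 3 reference levels, 5.53. Probes of such close relatives can share signal with one another, so single members of this group are uncertain.

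Of 6 cathepsins known from blood and immune cells, Ctsc was above and 5 were not, where 59.1% of all genes were above. Ctss, the cathepsin of antigen-presenting cells and microglia, had 4.63, 4.48 and 4.63. Ctsk, known from osteoclasts, had 5.19 on every array, and the neutrophil serine protease gene Ctsg had 4.90, 4.76 and 5.19. Ctse had 4.64, 4.52 and 4.70, and the lymphocyte gene Ctsw had 5.42, 5.02 and 5.49. In the same RNA, 5 of 16 microglia and macrophage markers were above the level, beside the same 59.1% of all genes. They were Cx3cr1, P2ry12, C1qa, Cd68 and Cd14, while Aif1, Csf1r, Tmem119 and C1qb, among others, were not. C1qb exceeded the level on all 3 arrays without passing the test (5.73, 5.73 and 5.85; limma adjusted p = 0.0556). All 5 calls ended at the 99th percentile and with other reference genes, where 44.9% and 43.4% of all genes were above. At the 90th percentile 10 markers were above, beside 66.7% of all genes. The median microglia marker had a margin of -0.098, -0.034 and -0.017 to the level on arrays 1, 2 and 3. In bulk RNA, fewer cells of a type and less RNA per cell cannot be told apart.

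The lysosomal membrane and calcium genes differed between paralogs. Lamp1 (11.94 on every array) and Lamp2 (11.68 on every array), the main proteins of the lysosomal membrane, were above. Lamp3, known from dendritic cells, had 4.20, 4.12 and 4.41, and Lamp5, known from neurons, had 5.30, 5.30 and 5.31. Mcoln1, the lysosomal calcium channel gene mutated in mucolipidosis, had 9.74 on every array, and Mcoln2 had 5.27, 5.27 and 5.37 and was not above. Mcoln3 lay just above, with 5.80, 5.84 and 5.98, a margin of 0.25 ± 0.070 and limma adjusted p = 0.00126. Its call ended without array 1 (limma adjusted p = 0.0595), at the 99th percentile and with other reference genes. Over the 12 alternatives its adjusted p ran from 7.00e-18 to 1.

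Of the 2 regulators, Tfe3 was above and Tfeb was not. Tfe3 had 9.05 on every array, a margin of 3.43 ± 0.091. Tfeb had 5.71 on every array, which was above the reference level on arrays 1 and 2 and under it on array 3, and its margin was 0.087 ± 0.091 (limma adjusted p = 0.216). When the 90th percentile of the receptors served instead, 66.7% of all genes were called and Tfeb was among them (limma adjusted p = 1.45e-10). This was the lowest p over the 12 alternatives, and the highest was 1. Its margin at the 95th percentile was smaller than the SD of the reference level between arrays. The level of the Tfe3 transcript was not set against that of Tfeb, because the probe sets differ. Among relatives, Mitf (6.95 on every array) was above and Tfec (4.64 on every array) was not.

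Genes that work beside the set were counted from lists chosen with earlier results of these data known. Of 16 other initiation and nucleation genes 15 were above, including the kinase genes Ulk1 (9.32, 9.36 and 9.32) and Ulk2, the scaffold gene Rb1cc1 and Becn1 (8.73 on every array), and Vmp1 (4.73 on every array) was not. Of 13 genes of LC3-type proteins and cargo receptors 12 were above, including Map1lc3a (7.91, 7.92 and 7.83), Map1lc3b (12.49, 12.51 and 12.52), Gabarap and Gabarapl1, and Calcoco2 (4.34) was not. All 15 fusion genes were above, such as the SNARE genes Stx17 (8.21, 8.30 and 8.21) and Snap29. All 12 partners and assembly factors of the pump were above, including Tcirg1 (7.78 on every array), which encodes the a3 form of the large V0 subunit, and Atp6ap2 (11.33).

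On the lysosome side, 26 of 27 other hydrolases were above, including Hexa (10.13), Gla (8.93), Gaa (9.66, 9.69 and 9.66) and Gusb (7.91, 7.94 and 7.91), and Acp5, the acid phosphatase of osteoclasts, was not (5.14, 5.14 and 5.32). Of 18 other membrane proteins 17 were above, such as Cd63 (11.02, 11.02 and 11.03), and Laptm5 (4.77), known from blood cells, was not. All 9 genes of mannose 6-phosphate sorting, which brings enzymes to the lysosome, were above, such as M6pr (10.74). Of 14 relatives and controllers of Tfeb and Tfe3 12 were above, with Tfec and Lamtor5 (5.35) not above. Cystatins and stefins, families that include cathepsin inhibitors, were above in 3 of 12 cases: Cst3 (13.27), Cstb (9.18, 9.17 and 9.17) and Cst7 (6.05, 5.72 and 6.36). At the 99th percentile, with other reference genes and without moderation this count was 2, as the call of Cst7 ended. Cst7 was also the one listed gene above the level, outside the microglia list, whose arrays differed by over 0.5 log2 units. At the 99th percentile the fusion genes numbered 14 (without Vamp8), the pump partners 11 (without Vma21), the hydrolases 25 (without Galns) and the Tfeb and Tfe3 relatives and controllers 11 (without Lamtor2). With the other reference genes they numbered 14, 11, 24 and 10, with Arsa and Mitf lost as well. These shares are read beside the 59.1% of all genes (62.8% without the set and the receptors), and no test compared them with it.

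**Figure D3:**
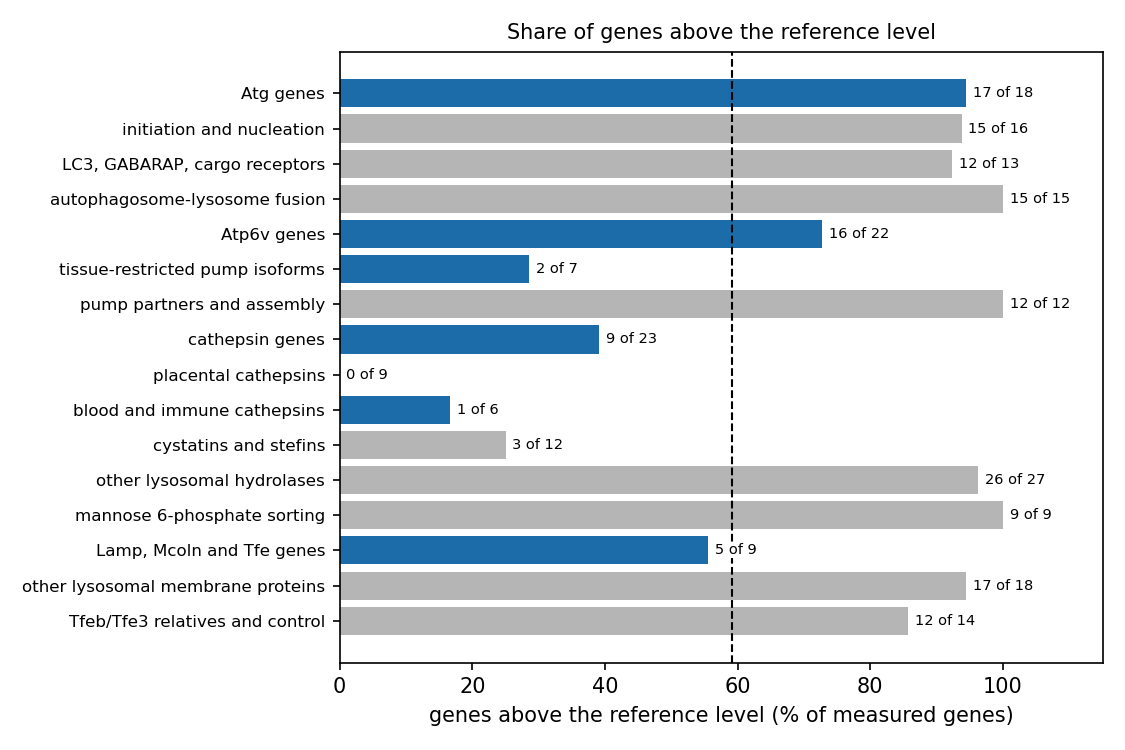
Genes above the reference level as a percentage of the measured genes of each list (x axis), with counts beside the bars and the share of all 22180 genes as the dashed line. Blue bars are the gene set and its sublists and grey bars are other genes of the pathways; the placental cathepsins are at 0 of 9, and the fusion, pump partner and mannose 6-phosphate lists are at 100%.

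The 3 arrays differed by small amounts in these genes, with wider ranges among genes not above the reference level. Of the 47 genes above, 24 had exactly equal deposited values on all 3 arrays (51.1%), and the widest range was 0.18 (Mcoln3). Among the 25 not above, 7 were equal (28%), the median range was 0.17 and the widest was 1.05 (Atp6v1g3). Over all genes the equal shares ran the other way, 37.2% of those above and 42.5% of those not above, while the median range was 0.030 and 0.056. A range over 0.5 log2 units was found in 3 of 72 genes, Atp6v1g3, Cts6 (0.85) and Ctsll3 (0.63), beside 5.31% of all genes. All 3 were among genes not above, where 9.25% of all genes had such a range. Equal values make the SD of single genes understate their true spread, and the SD of 0.091 shown for many margins is that of the reference level alone.

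In the values as deposited, the direction of the differences was not the same above and under the level. Among the 47 genes above the level, array 2 exceeded array 3 in 18, array 3 exceeded array 2 in 3, and 26 were tied. Among the 25 not above, array 3 exceeded array 2 in 17, array 2 exceeded array 3 in 1, Ctsm, and 7 were tied. All genes had the same pattern. Of those above, 48.9% were higher on array 2 than on array 3 and 11.8% lower. Of those not above 12.5% were higher and 41.3% lower. The rest were tied, 5148 genes above and 4200 not above. The mean differences were small, -0.10 on array 2 and 0.12 on array 3 for the 25 genes not above, relative to the mean of each gene. After quantile normalization of the 3 arrays, chosen after the data were seen, array 3 was the higher in 18 of the 25 genes not above and in 26 of the 47 above, and over all genes in 58.2% and 60.3%. After centring each array on its median, array 3 was the higher in 17 of the 25 genes not above, and array 2 in 44 of the 47 above. Over all genes array 2 was then the higher in 59.6% of those not above and 89.1% of those above. The median of array 2 was lower than that of array 3, so centring made every tied gene higher on array 2. The direction among genes above the level thus turned under quantile normalization. Centring cannot decide on it, since the shift of the ties to array 2 was fixed in advance. Among the set's genes not above, the direction was the same under all 3 scalings.

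**Figure D4:**
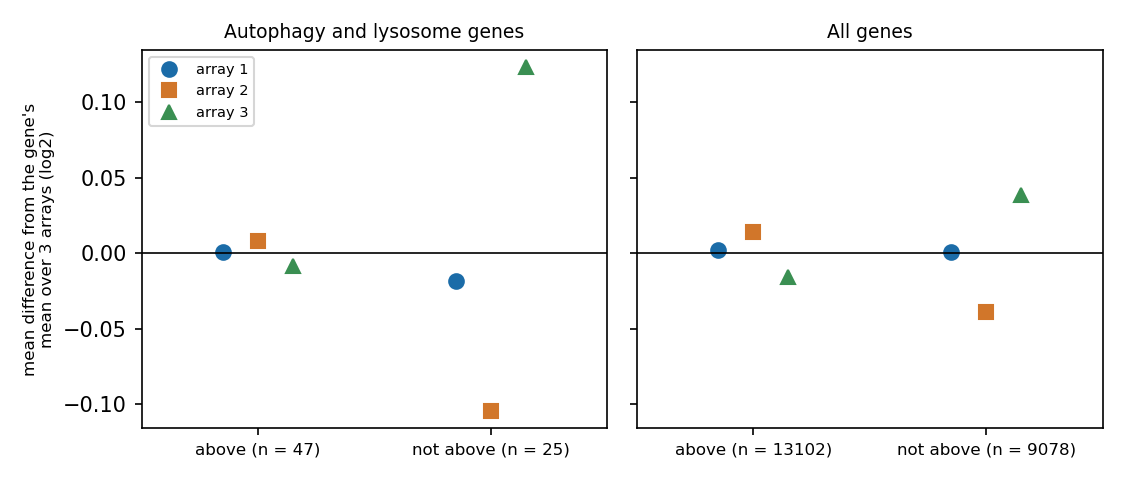
Mean difference of each array's log2 signal from the mean of each gene over the 3 arrays (y axis), for genes above and not above the reference level, among the autophagy and lysosome genes (left) and among all genes (right). Among genes not above, array 3 lies highest and array 2 lowest in both panels.

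Markers of the labelled cell type were read as well. All 9 measured neural precursor markers were above the level, among them Sox2 (11.44, 11.43 and 11.30), Nes and Fabp7. Over all genes 59.1% were above. No list of mature glia or neurons was counted, so these markers do not tell precursors from other neural cells. Of 8 endothelial and blood cell markers, Kdr was above (6.80, 6.91 and 6.80). At the 90th percentile 4 were, beside 66.7% of all genes. At the 99th and with other reference genes 0 were, beside 44.9% and 43.4% of all genes. The array medians were 5.87, 5.85 and 5.86 over all probe sets. With n = 3, the number of arrays limits the precision.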

How the data were processed

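The values are log2 signals per probe set that the authors deposited, and per the submitters' processing notes they come from RMA; its version and options are not given in the sources used here, and no scanner files were used. Gene names are those of the platform's annotation: 23521 had 1 symbol, 1814 several and 16010 none, and those with 1 symbol were used. For 1082 genes with several probe sets, the one with the highest mean was kept. The intercept-only limma fit used eBayes with an intensity trend on signal minus reference level. Its prior degrees of freedom were infinite, so genes of like signal shared 1 spread. A p-value thus does not measure the spread of the single gene, and it does not cover the choice of reference. Differences between arrays were also tested by an F test on the residual variance. Every measured gene of the rule could be named, and of each other list the first 4 genes above, the first 4 not above and those with a range over 0.5. Genes named outside this were chosen after their values were seen. The gene set and lists were chosen with earlier results of these data known. Both tests were tested on simulated data with normal noise of 1 spread, no tied values and a known reference level. The deposited values hold many ties, so these runs do not show how the tests behave with them. R 4.3.3 with limma 3.58.1 was used, with Python 3.11.15 and matplotlib 3.10.9 for promoters and figures. Alternatives changed the reference, probe set choice, scaling, model, filter and replicates.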

Additional observations from a re-analysis of the deposited data

How the results depend on the processing

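Of the 72 genes, 43 were above the reference level and 22 were not in each of the 13 alternatives in which they were tested. The exceptions were Atg16l2, Atp6v1b1, Atp6v1e2, Atp6v1f, Atp6v1g3, Mcoln3 and Tfeb. With the 99th percentile as the reference, 44 were above (44.9% of all genes), and the margins of Atp6v1e2, Atp6v1f and Mcoln3 turned to -0.45, -0.13 and -0.53. With 139 probe sets of bitter taste receptors, defensins and keratin-associated proteins as the reference, they were -0.50, -0.18 and -0.58. There 43 genes of the set were above, beside 43.4% of all genes. With the 90th percentile 50 were above, beside 66.7% of all genes. Restricted pump isoforms numbered 4 at the 90th percentile, 1 at the 99th and 1 with the other reference genes. Microglia markers numbered 10, 0 and 0 in these settings, and endothelial and blood markers 4, 0 and 0, and 2 when a gene had to exceed the level on each array without a test. The median margins at the 90th percentile, the 99th percentile and the other reference genes were 2.85, 1.71 and 1.67 for the whole set, 3.01, 1.88 and 1.83 for Atg genes, -0.31, -1.45 and -1.50 for cathepsins, 4.77, 3.64 and 3.59 for Atp6v genes, and 1.12, -0.011 and -0.058 for all genes. The shift follows from the construction of the reference, and centring the arrays leaves margins as they are, since the reference moves along. With the median over probe sets the Atp6v margin was 3.98, since the other probe sets of Atp6v1g1 and Atp6v1b2 read lower. Leaving out 1 replicate at a time gave 46 to 47 genes of the set above, the lower count without array 1. The genes with a range over 0.5 then numbered 1 to 3, with 1 left without array 3, and over all genes 262 to 1043, with 262 without array 2 and 513 without array 3. For the same probe set, a range over 2 arrays cannot exceed that over 3. These counts were thus bound to stay or fall, apart from changes of the kept probe set. The F test of variance between arrays called 0 genes, and 0 had an unadjusted p under 0.05, with and without an intensity trend after adjustment. Its prior degrees of freedom were 0.299, so it could call nothing here and says nothing about stability. No paired analysis was possible because the labels give 1 group. Signal over background limits what can be said of genes near the reference level, such as Tfeb and Mcoln3.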

Other observations

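Probe sets left aside for 2 pump genes gave other values. The kept Atp6v1g1 probe set had a mean of 9.25 on the log2 scale, and the other 2 had 5.87 and 6.15. For Atp6v1b2 the kept probe set had 11.89 and the other 6.77. All of these means were above the mean reference level, by 0.24 at the least. The Atp6v1g1 probe set with that margin read 5.98, 5.98 and 5.65 on arrays 1, 2 and 3. On array 3 it was thus under the level of 5.71.

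Among broadly used genes of autophagy and lysosomal signalling, Vmp1, an endoplasmic reticulum protein of autophagosome formation, and Lamtor5, a subunit of the lysosomal Ragulator complex, were not above the reference level, with 4.73 and 5.35 on every array. The other 4 Ragulator genes were above, with Lamtor1 at 9.65, Lamtor2 at 6.63, 6.70 and 6.63, Lamtor3 at 11.58 and Lamtor4 at 10.28. The Rag GTPase genes that work with them were above as well, with Rraga at 9.06, Rragb at 9.34, Rragc at 9.67, 9.70 and 9.67, and Rragd at 9.43, 9.44 and 9.26. These genes were chosen after their values were seen.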
